A study of Mus musculus with 4 samples.

Results

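Bile acid handling genes were followed in the small intestinal epithelium of suckling mice as a group of 7 genes chosen by name for their roles (Slc10a2, Fabp6, Slc51a, Slc51b, Fgf15, Nr1h4 and Nr0b2), and all 7 were found by symbol among the 32227 genes of the feature lists. Their identifiers there are ENSMUSG00000023073 for Slc10a2, ENSMUSG00000020405 for Fabp6, ENSMUSG00000035699 for Slc51a, ENSMUSG00000053862 for Slc51b, ENSMUSG00000031073 for Fgf15, ENSMUSG00000047638 for Nr1h4 and ENSMUSG00000037583 for Nr0b2. Jejunal and ileal epithelium had been taken from 2 wild-type (WT) mice on postnatal day 6 (P6) and profiled as single cells in 4 libraries, 2 per region. Per the study's methods the mice were C57BL/6J, and the series design states that the segments of each region pair came from 1 mouse. Replicate 1 of each region is the mouse of batch 1, labelled male, and replicate 2 the mouse of batch 2, labelled female. All groups were untreated wild-type animals of the same age, and the epithelium was released with EDTA and dissociated with dispase. Mouse, batch and labelled sex split the libraries in the same way and cannot be told apart.

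Conjugated bile acids reach the lumen with each meal and are recovered mainly in the distal small intestine. There an apical sodium-dependent transporter takes them up, a cytosolic protein binds them, and a basolateral heterodimer passes them to portal blood. Inside the enterocyte they activate the nuclear receptor FXR, which raises the hormone FGF15 and the corepressor SHP, and FGF15 from the ileum lowers bile acid synthesis in the liver.

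The libraries held 7539 to 10001 called cells each, with 125067265 and 131400239 UMIs (distinct tagged RNA molecules) in the ileal libraries, and 57951874 and 64391480 in the jejunal ones. Of the called cells, those showing 1000 to 6000 genes with under 20% mitochondrial UMIs were kept, 15802 ileal and 14719 jejunal. The kept jejunal cells were shallower, with medians of 4690 and 5884 UMIs per cell against 12047.5 and 10916 in the ileum, and had median mitochondrial shares of 6.37% and 9.94% against 3.61% and 3.74%. No pair of libraries shared more than 1 cell barcode, and no doublets were removed. Xist and the Y-linked gene Eif2s3y went against the sex label in all 4 libraries, so replicates are called by number here. Clusters built without the 7 genes were named from marker lists, and the enterocyte-like class held 6233, 6941, 7905 and 4973 cells in ileum 1, ileum 2, jejunum 1 and jejunum 2. Its clusters each had 11 to 13 of the 13 enterocyte markers in at least 50% of cells, so these cells carried the markers of the labelled epithelium.

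All 7 genes were detected in enterocyte-like cells of every library, and their levels split by region in opposite directions. Fabp6 and Slc10a2, the binding protein and the uptake carrier, were higher in the ileum. Slc51b, a subunit of the exporter, and Nr0b2, which encodes SHP, were lower there. Slc51a, Fgf15 and Nr1h4 did not pass the test, which had region as its only term. Fgf15 did pass with the mouse as a replicate block, as given below. The test was edgeR's quasi-likelihood test on UMI counts summed per library, with Benjamini-Hochberg adjustment over all 19595 genes tested, and it called 4 of the 7 genes against 7.42% of all genes. Levels are given as CPM, a gene's UMI count scaled to a common total of UMIs for the class in each library, and with 2 mice the p-values measure the spread between 4 libraries only.

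**Figure D1:**
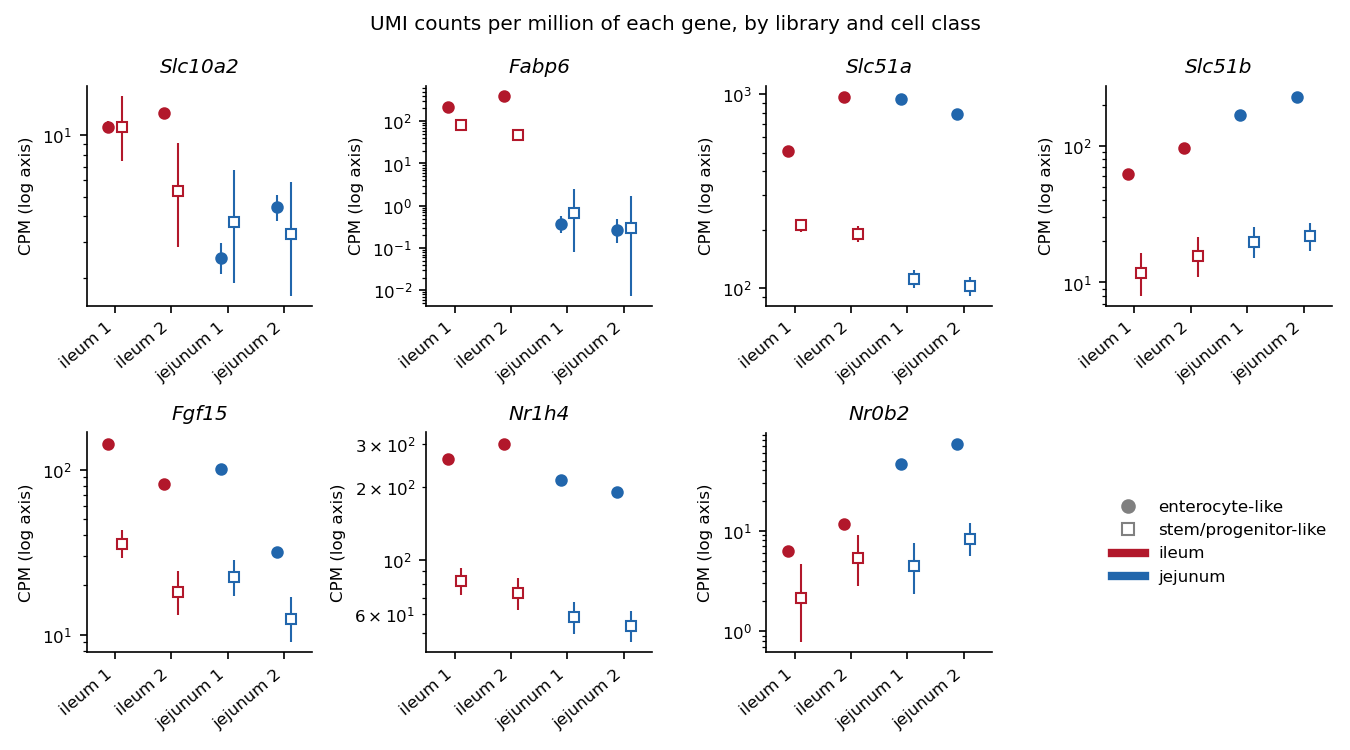
Each panel plots 1 gene, with the 4 libraries on the x axis and its level in CPM on a log y axis. Filled circles are enterocyte-like and open squares stem/progenitor-like sums, red for ileum and blue for jejunum, and bars are exact 95% Poisson intervals of the counts. Fabp6 sits near 0.3 CPM in both jejunal libraries and above 200 CPM in both ileal enterocyte-like sums, while Slc51b and Nr0b2 sit higher in the jejunum.

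Slc10a2 encodes ASBT, the apical carrier that takes conjugated bile acids up from the lumen with sodium. Its level in enterocyte-like cells was 10.99 CPM in ileum 1, 12.8 in ileum 2, 2.49 in jejunum 1 and 4.42 in jejunum 2. Both ileal libraries lay above both jejunal ones. The means were 11.9 ± 1.28 CPM for ileum and 3.46 ± 1.37 for jejunum (SD, n = 2 libraries each), a log2 fold change of 1.67 ± 0.33 (SE) with an adjusted p of 0.0423 by edgeR. Within mouse 1 the log2 difference of CPM, with 1 CPM added, was 1.78, and within mouse 2 it was 1.35. The jejunal values rest on 131 and 182 UMIs over the whole class, so the gene was detected in the jejunum but at few molecules. The call was lost without ileum 1 (adjusted p = 0.111) and without ileum 2 (0.123), with the difference still above 0.

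Fabp6 encodes the ileal bile acid binding protein, which carries bile acids through the cytosol of the enterocyte. In enterocyte-like cells it stood at 218 CPM in ileum 1 and 390.25 in ileum 2, and at 0.380 in jejunum 1 and 0.267 in jejunum 2. The ileal values rest on 17056 and 32930 UMIs and the jejunal ones on 20 and 11. No other gene of the 7 separated the regions by as much. The means were 304 ± 122 and 0.324 ± 0.0796 CPM (SD, n = 2), and the log2 fold change was 9.75 ± 0.48 with an adjusted p of 0.00864 by edgeR. From the pooled counts the ileum held 930 times the jejunal level, with an exact 95% counting interval of 655 to 1368 times. Within mouse 1 this ratio was 573 and within mouse 2 it was 1460, so the size of the contrast differed between the mice while its direction did not.

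The basolateral exporter is a heterodimer of OSTα, encoded by Slc51a, and OSTβ, encoded by Slc51b, and both subunits are needed for transport. The 2 genes did not follow the same regional order. Slc51a was at 509 CPM in ileum 1, 974 in ileum 2, 947 in jejunum 1 and 791 in jejunum 2. The jejunal values lay between the ileal ones, and the log2 fold change of −0.33 ± 0.33 did not pass the test (adjusted p = 0.549). Within mouse 1 the ileum was lower by a log2 difference of −0.89 and within mouse 2 it was higher by 0.30.

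Slc51b was at 62.5 CPM in ileum 1, 95.8 in ileum 2, 168 in jejunum 1 and 227 in jejunum 2. Here both jejunal libraries lay above both ileal ones, with means of 79.2 ± 23.6 CPM for ileum and 197 ± 42.1 for jejunum (SD, n = 2). Its log2 fold change was −1.43 ± 0.29 with an adjusted p of 0.0455 by edgeR, close to the threshold, and the differences within the mice were −1.41 and −1.24. The call was lost without ileum 1 (adjusted p = 0.129), without ileum 2 (0.0516) and without jejunum 2 (0.123). Counted as tagged 3′ ends, 8.13 and 10.2 Slc51a UMIs stood beside each Slc51b UMI in ileum 1 and 2, against 5.65 and 3.48 in jejunum 1 and 2. The ratio of the subunits' counts was thus higher in both ileal libraries. Read capture can differ between the 2 transcripts, so the ratios are compared between libraries and not read as protein stoichiometry.

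Fgf15 encodes the hormone that enterocytes release into portal blood under FXR. It was at 144 CPM in ileum 1, 81.5 in ileum 2, 101 in jejunum 1 and 31.7 in jejunum 2. The values of the regions overlapped, and mouse 1 lay above mouse 2 in each region. The means were 113 ± 44.0 CPM for ileum and 66.2 ± 48.7 for jejunum, and the log2 fold change of 0.66 ± 0.52 did not pass the test (adjusted p = 0.442). The ileum was higher within each mouse, by log2 differences of 0.51 and 1.33. With the mouse as a replicate block, the pairing given by the design, edgeR put the difference at 0.82 with an adjusted p of 0.0424, a fit in which 18.2% of all genes were called. With no block the difference was 1.68 without jejunum 1 (adjusted p = 0.0423) and 0.25 without ileum 1, 0.97 without ileum 2 and 0.090 without jejunum 2 (adjusted p = 0.830, 0.396 and 0.912). In jejunum 1 and 2 the class held 5300 and 1306 UMIs of Fgf15 beside 20 and 11 of Fabp6, so transcript of the hormone was present where the binding protein was nearly at 0.

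Nr1h4 encodes FXR, the bile acid receptor. Its level was 259 CPM in ileum 1, 299.6 in ileum 2, 212 in jejunum 1 and 190.0 in jejunum 2. The ileal libraries lay above the jejunal ones by a small margin, and the log2 fold change of 0.36 ± 0.16 did not pass the test (adjusted p = 0.192), with differences of 0.29 and 0.65 within the mice.

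Nr0b2 encodes SHP, a corepressor that FXR induces and that restrains other nuclear receptors. It was at 6.30 CPM in ileum 1, 11.6 in ileum 2, 46.8 in jejunum 1 and 73.2 in jejunum 2. Both ileal libraries lay below both jejunal ones, with means of 8.94 ± 3.74 and 60.0 ± 18.6 CPM (SD, n = 2). The log2 fold change was −2.85 ± 0.40 with an adjusted p of 0.0229 by edgeR, and −2.71 and −2.56 within the mice. The call was lost without ileum 1 (adjusted p = 0.0746). Fabp6 and Nr0b2, both known to respond to FXR in the adult gut, thus differed between the regions in opposite directions.

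In order of level within a library, counted as tagged 3′ ends, Slc51a had rank 1 of the 7 in all 4 enterocyte-like sums and Slc10a2 rank 6. Fabp6 had rank 3 in ileum 1, rank 2 in ileum 2 and rank 7 in both jejunal libraries. Nr0b2 had rank 7 in both ileal libraries but ranks 5 and 4 in jejunum 1 and 2. The ileal values of Nr1h4 and Fabp6 overlapped, as did the ileal values of Fgf15 and Slc51b.

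**Figure D2:**
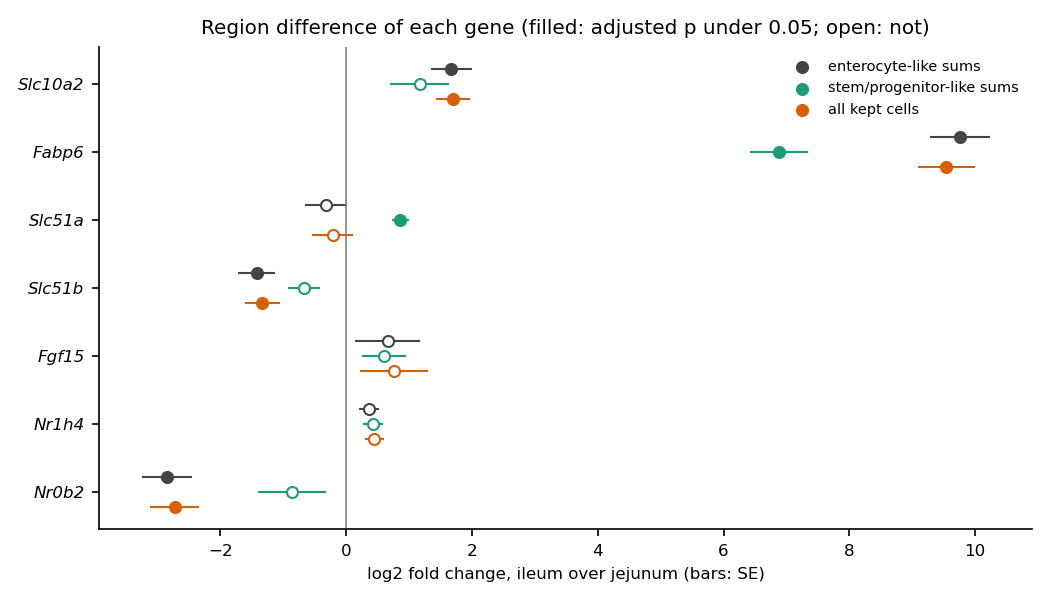
The x axis is the log2 fold change of ileum over jejunum with its standard error, for each of the 7 genes in enterocyte-like sums, stem/progenitor-like sums and sums over all kept cells. Filled points passed an adjusted p of 0.05 and open ones did not. Slc51a is open and below 0 in enterocyte-like sums but filled and above 0 in stem/progenitor-like sums.

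Sums over all kept cells, which use no clusters, called 4 of the 7 genes against 7.49% of all 20368 tested. These were Fabp6 at a log2 fold change of 9.54 (adjusted p = 0.00597), Slc10a2 at 1.70 (0.0282), Slc51b at −1.33 (0.0467) and Nr0b2 at −2.73 (0.0231), all by edgeR. In sums over all cells, fewer cells of a type and less RNA per cell cannot be told apart. Slc51a (−0.22, adjusted p = 0.702), Fgf15 (0.76, 0.395) and Nr1h4 (0.45, 0.132) did not pass.

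Promoter sequence is shown for the 4 genes that were called by region in at least 1 class and held a match to a motif searched. The 250 bases before the RefSeq start were read from the GRCm38.p6 table, which is an earlier build than the GRCm39 named in the submitters' processing notes, so the coordinates apply to GRCm38.p6 alone. Of the 7 genes 6 had an entry and Fgf15 is only named. Capitals mark matches, on either strand, to a loosened FXR inverted repeat, GGTNANTNACC, or to the element of the nuclear receptor LRH-1, CAAGGNCA. Each promoter is written 5′ to 3′ on the gene's strand. Fabp6 lay at chr11:43601563-43601812 on the minus strand, Slc51b at chr9:65422774-65423023 on the minus strand, Slc51a at chr16:32487880-32488129 on the minus strand and Nr0b2 at chr4:133553126-133553375 on the plus strand.
Fabp6: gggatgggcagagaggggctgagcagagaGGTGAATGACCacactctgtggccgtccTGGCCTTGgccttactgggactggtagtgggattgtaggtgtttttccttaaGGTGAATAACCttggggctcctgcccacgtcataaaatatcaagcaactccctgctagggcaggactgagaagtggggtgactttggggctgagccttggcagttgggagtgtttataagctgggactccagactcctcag
Slc51b: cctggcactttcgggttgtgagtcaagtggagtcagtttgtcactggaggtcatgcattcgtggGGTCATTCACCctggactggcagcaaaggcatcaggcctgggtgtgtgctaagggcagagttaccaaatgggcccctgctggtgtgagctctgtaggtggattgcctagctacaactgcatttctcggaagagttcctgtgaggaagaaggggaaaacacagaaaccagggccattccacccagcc
Slc51a: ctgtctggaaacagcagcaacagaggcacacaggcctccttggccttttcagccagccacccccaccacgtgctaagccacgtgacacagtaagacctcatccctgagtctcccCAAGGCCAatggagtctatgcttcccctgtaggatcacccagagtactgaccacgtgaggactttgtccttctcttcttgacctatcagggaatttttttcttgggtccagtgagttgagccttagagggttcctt
Nr0b2: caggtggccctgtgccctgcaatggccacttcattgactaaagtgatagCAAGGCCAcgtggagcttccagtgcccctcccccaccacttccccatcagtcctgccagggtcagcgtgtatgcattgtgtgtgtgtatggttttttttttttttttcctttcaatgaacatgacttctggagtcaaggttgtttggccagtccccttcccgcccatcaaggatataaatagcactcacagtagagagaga

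Fabp6 held the loosened repeat at 2 places, GGTGAATGACC at 211 to 221 bases and GGTGAATAACC at 131 to 141 bases before the start, and the reverse of the LRH-1 element, TGGCCTTG, at 186 to 193. Slc51b held the repeat as GGTCATTCACC at 176 to 186 bases before its start. CAAGGCCA stood at 129 to 136 bases before the start of Slc51a and at 194 to 201 before that of Nr0b2. The windows of Slc10a2 and Nr1h4 held neither motif. In the promoters shown, no match of one motif overlapped the other. Of 32851 mouse promoters of that length, 72 (0.219%) held the loosened repeat, 1816 (5.53%) the LRH-1 element and 2 (0.00609%) the full repeat AGGTCANTGACCT. The loosened form was chosen after the Fabp6 promoter had been read, so the matches are a description of letters only. Fabp6 and Slc51b share the loosened repeat and differed by region in opposite directions.

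The share of cells with a UMI was compared after each cell had been thinned to 2000 UMIs, since jejunal cells were shallower. Fabp6 was then seen in 17.5% of enterocyte-like cells in ileum 1, 29.1% in ileum 2, 0.0555% in jejunum 1 and 0.0209% in jejunum 2. Unthinned, the shares were 33.4%, 51.2%, 0.240% and 0.221%. Most ileal enterocyte-like cells therefore gave no Fabp6 UMI at equal depth, while single ileal cells held up to 138 and 155 UMIs of it.

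Slc51a was the most widely seen, in 59.7% and 83.0% of enterocyte-like cells in ileum 1 and 2 and in 82.2% and 75.6% in jejunum 1 and 2. Nr1h4 was seen in 37.0% and 43.1% against 31.1% and 27.9%, and Slc51b in 10.6% and 16.1% against 23.1% and 30.0%. Fgf15 was seen in 20.9% and 13.8% against 15.5% and 4.84%. Shares were low throughout for Slc10a2, at 2.04% and 2.24% in ileum 1 and 2 and 0.458% and 0.754% in jejunum 1 and 2, and for ileal Nr0b2, at 1.03% and 2.12% against 7.72% and 11.7% in the jejunum. The libraries of the regions did not overlap for 5 of the 7 genes (Fabp6, Slc10a2, Slc51b, Nr1h4 and Nr0b2), against 70.0% of 10761 genes seen in at least 1% of cells, so that share is near the background. For each of the 5 the exact two-sided permutation test gave the smallest p that 2 against 2 libraries allow, 1 in 3 splits. The Slc51b shares overlapped between regions without thinning.

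Fabp6 varied widely among ileal enterocytes. Over the 17 enterocyte-like clusters with at least 50 cells in ileum 1, its level ran from 8.95 CPM in cluster 6 to 909.9 in cluster 15, with a median of 170.1. Over 15 such clusters in ileum 2 it ran from 30.3 CPM in cluster 6 to 848 in cluster 5, with a median of 335. The highest cluster held 102 times the lowest in ileum 1 and 28.02 times in ileum 2. Cluster 6 was led by Sprr2a2, Serpinb6b and Trf, and cluster 15 by Krt19, Ms4a18 and Cldn15. Cluster 2, led by Fabp6 itself with Bcl2l15 and Scd2, held 42.4% of the ileal Fabp6 UMIs with 10.8% of the kept ileal cells. Its cells were deep (median 17976 UMIs over all libraries), and the share of UMIs is not corrected for depth. On CPM its Fabp6 level was 589 in ileum 1 and 838 in ileum 2.

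Slc51a ran from 249 to 1035 CPM over the clusters of ileum 1 and from 599.6 to 1525 over those of ileum 2, and Nr1h4 from 92.3 to 374 and from 114 to 401. Fgf15 was lowest in cluster 6 and highest in cluster 15 in both ileal libraries, from 29.6 to 327 CPM in ileum 1 and from 26.8 to 179 in ileum 2. Cluster 15 was thus the top cluster of Fgf15 in both ileal libraries, as it was for Slc51b, and of Fabp6, Slc10a2 and Slc51a in ileum 1. In jejunum 1 cluster 15 was again highest for Fgf15, at 256 CPM, with 47.5 in the lowest cluster, but in jejunum 2 cluster 9 was highest, at 53.1 CPM, and cluster 15 was at 37.8. Slc10a2 ran from 5.88 to 38.2 CPM over the clusters of ileum 1 and from 2.98 to 28.7 over those of ileum 2, and Nr0b2 from 0 to 12.4 and from 1.66 to 17.8. In the jejunum Nr0b2 ran from 8.05 to 75.4 CPM over the clusters of jejunum 1 and from 24.7 to 123 over those of jejunum 2, highest in cluster 3 in both.

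**Figure D3:**
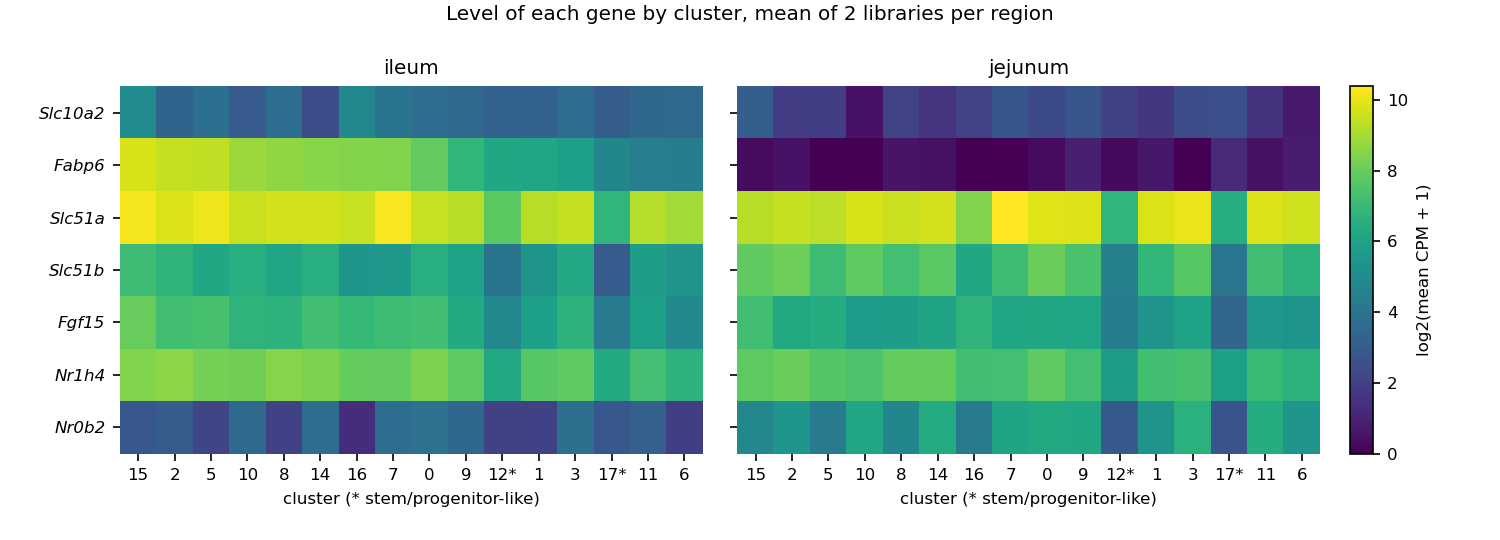
Columns are clusters, ordered by ileal Fabp6 and with the stem/progenitor-like ones starred, rows are the 7 genes, and colour is log2 of the mean CPM of the 2 libraries of a region plus 1. Ileal Fabp6 falls from cluster 15 on the left to cluster 6 on the right while its jejunal row stays dark, and Nr0b2 is darker in the ileum than in the jejunum.

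The regional order held cluster by cluster where it held in the sums. In 14 of 14 enterocyte-like clusters with at least 50 cells in all 4 libraries, both ileal libraries lay above both jejunal ones for Fabp6 and for Slc10a2, and below them for Slc51b and for Nr0b2. Nr1h4 was higher in both ileal libraries in 13 clusters and overlapped in 1. Slc51a overlapped in 8, was higher in the ileum in 3 and lower in 3. Fgf15 overlapped in 12 of the 14, and mouse 1 lay above mouse 2 in both regions in all 14. The clusters come from the same 4 libraries, so these counts do not add replicates.

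Stem/progenitor-like cells, the crypt compartment from which enterocytes form, numbered 442 and 437 in ileum 1 and 2 and 485 and 463 in jejunum 1 and 2. Of the 7 genes edgeR called 2 in this class, against 2.41% of 12585 genes. Fabp6 and Slc51a, binding protein and exporter subunit, were both higher in the ileum. Fabp6 was at 79.4 CPM in ileum 1, 46.7 in ileum 2, 0.684 in jejunum 1 and 0.298 in jejunum 2, on 225, 114, 2 and 1 UMIs. Its log2 fold change was 6.88 ± 0.46 (adjusted p = 6.79e-05), and the ratio of pooled counts was 134.5 with an exact 95% counting interval of 45.6 to 656. Within the mice the ratios were 116 and 157. The ileal Fabp6 UMIs were uneven within the class. Cluster 12, led by Olfm4, Ccna2 and Mki67, held 313 in 642 cells. Cluster 17, led by Olfm4 and Lgr5, held 26 in 237 cells, and these counts are not corrected for depth. Without thinning, 13.3% of the class held a Fabp6 UMI in ileum 1 and 16.2% in ileum 2, with up to 33 and 15 UMIs in 1 cell.

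Slc51a in stem/progenitor-like cells was at 210.05 CPM in ileum 1, 189.7 in ileum 2, 111 in jejunum 1 and 102 in jejunum 2. The ileal libraries lay above the jejunal ones, with a log2 fold change of 0.86 ± 0.14 and an adjusted p of 0.00885 by edgeR, and differences of 0.91 and 0.89 within the mice. The log2 fold changes of the other genes were 1.17 ± 0.47 for Slc10a2 (adjusted p = 0.276), −0.67 ± 0.26 for Slc51b (0.255), 0.60 ± 0.34 for Fgf15 (0.477), 0.42 ± 0.16 for Nr1h4 (0.240) and −0.87 ± 0.54 for Nr0b2 (0.518), and none passed. With the mouse as a replicate block the same 2 genes were called, against 8.80% of all genes.

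Free enterocyte RNA can add UMIs to other cells, and its part in the stem/progenitor-like values was not tested. At 2000 UMIs per cell Fabp6 was seen in 5.79% of ileal stem/progenitor-like cells, in 11.4% of ileal enteroendocrine-like cells and in 5.26% of 19 ileal immune-like cells (exact 95% interval 0.133% to 26.03%), a type that should lack it. Slc51a was seen in 22.9% of ileal and 17.1% of jejunal stem/progenitor-like cells, and in 21.1% and 16.7% of immune-like cells (intervals 6.05% to 45.6% and 5.64% to 34.7%). Median depths before thinning were 4523 and 4790.5 UMIs in stem/progenitor-like cells of ileum and jejunum and 4520.5 and 5462 in immune-like ones. The shares in stem/progenitor-like cells lay within the immune-like intervals for all 7 genes in both regions. With 19 and 30 immune-like cells the intervals are too wide for this comparison to decide, and no conclusion is drawn from it. The immune-like cluster also passed the naming limits for 7 stem/progenitor markers beside 7 immune ones. Single immune-like cells held up to 17 Slc51a UMIs in ileum 1 and 16 in jejunum 1. Doublets were not removed, and their part in these values was not tested. The stem/progenitor-like level of Fabp6 was 36.5% and 12.0% of the enterocyte-like level in ileum 1 and 2, where the lowest such percentage among genes of at least 500 CPM in enterocyte-like cells was 9.14% (Ftl1) and 9.22% (Alpi). For Slc51a it was 41.3% and 19.5% in ileum 1 and 2 and 11.7% and 12.9% in jejunum 1 and 2. The lowest such percentage in jejunum 1 and 2 was 6.46% and 5.95% (Leap2), below that in the ileum. In enteroendocrine-like cells Slc51a was at 382 and 441 CPM in ileum 1 and 2 and at 165 and 144 in jejunum 1 and 2. Its higher ileal level was therefore not particular to stem/progenitor-like cells. Fabp6 in jejunal immune-like cells was at 0 of 30 cells, which allows a share of up to 10.0% by a limit of 3 counts and 11.6% by the exact interval.

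**Figure D4:**
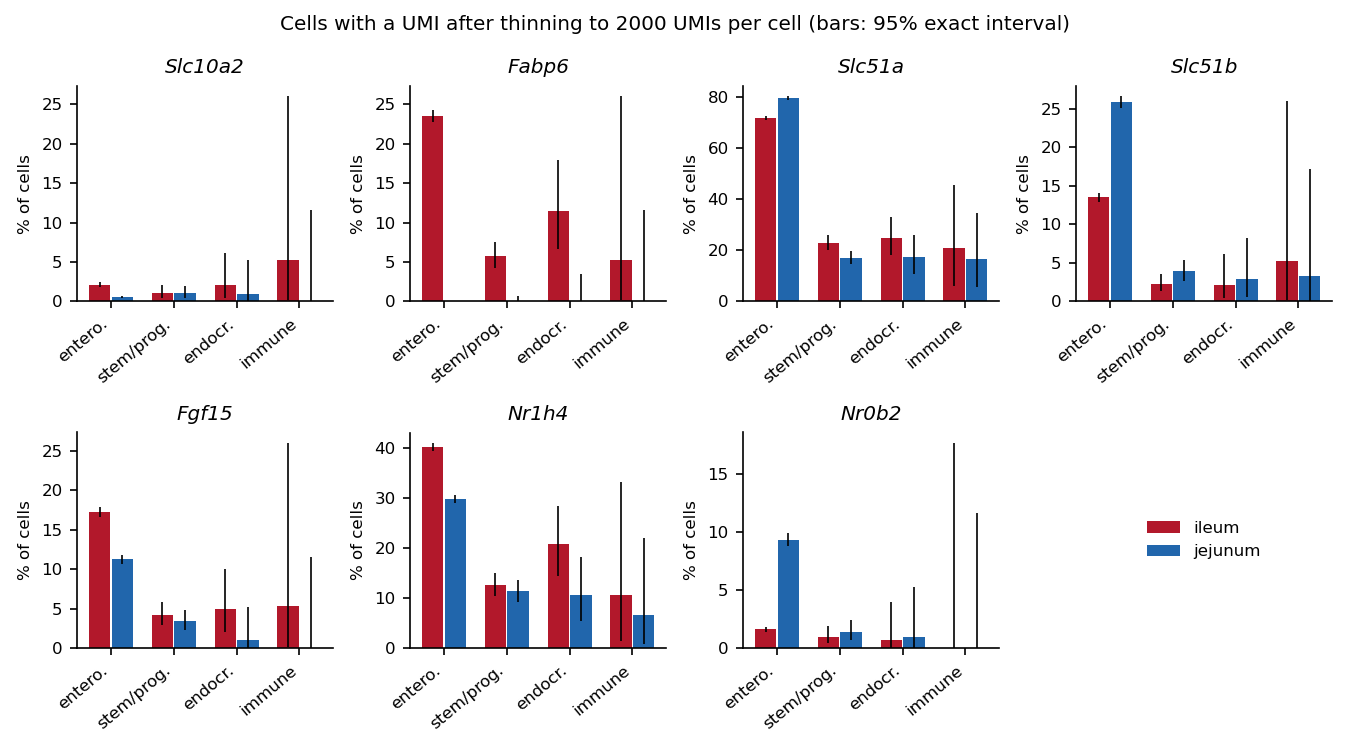
Bars give the percentage of cells with at least 1 UMI of the gene after thinning to 2000 UMIs, pooled over the 2 libraries of a region, for enterocyte-like, stem/progenitor-like, enteroendocrine-like and immune-like cells, with exact 95% binomial intervals that cover counting error only. The y axes differ between panels. In the panels of Slc51a, Slc51b, Fgf15, Nr1h4 and Nr0b2 the enterocyte-like bars are the highest in both regions, and the immune-like intervals are wide because they rest on 19 ileal and 30 jejunal cells.

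Enterocyte-like and stem/progenitor-like cells were then compared in the same mice, in a fit of 8 sums with the library as a block. Within the ileum all 7 genes were higher in enterocyte-like cells, against 32.2% of 18949 genes called higher. The log2 differences were 3.10 ± 0.16 for Slc51b, 2.77 ± 0.20 for Fabp6, 2.65 ± 0.16 for Fgf15, 2.42 ± 0.12 for Nr1h4, 2.39 ± 0.16 for Slc51a, 1.85 ± 0.28 for Nr0b2 and 1.10 ± 0.29 for Slc10a2, whose adjusted p of 0.00223 by edgeR was the largest of the 7. On plain CPM with 1 CPM added and no scaling between the classes, the difference for Slc10a2 was 0.0061 in mouse 1 alone and 1.12 in mouse 2 alone, for Fabp6 1.44 and 3.04, for Slc51a 1.27 and 2.35, and for Nr0b2 1.23 and 0.99, while Slc51b, Fgf15 and Nr1h4 lay between 1.65 and 2.55. For Slc51b, Fgf15, Nr1h4, Slc51a and Nr0b2 the edgeR value lay above both single-mouse values, so the size of these differences depends on the calculation. For Fabp6 and Slc10a2 it lay between them. With enterocyte-like sums brought to equal size the Slc10a2 call was lost (0.82, adjusted p = 0.0545 by edgeR). When the 7 genes were allowed among the clustering genes the Slc10a2 difference was −0.17, so its sign depends on how the cells were clustered. Within the jejunum 5 of the 7 were higher in enterocyte-like cells, against 30.3% of all genes. Nr0b2 (3.87 ± 0.19), Slc51b (3.88 ± 0.14) and Slc51a (3.65 ± 0.17) had the widest jejunal differences, followed by Nr1h4 (2.47 ± 0.12) and Fgf15 (2.46 ± 0.17). Fabp6 (0.04 ± 1.26, adjusted p = 0.985) and Slc10a2 (0.60 ± 0.38, adjusted p = 0.187) did not pass in the jejunum.

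The region difference itself differed between the classes for 3 of the 7 genes, against 9.36% of all genes tested for the interaction. It was more negative in enterocyte-like than in stem/progenitor-like cells by −1.27 ± 0.22 for Slc51a (adjusted p = 0.000497 by edgeR), by −2.01 ± 0.43 for Nr0b2 (0.00362) and by −0.77 ± 0.25 for Slc51b (0.0489). The stem/progenitor-like side of Nr0b2 rests on few UMIs, 6 and 13 in ileum 1 and 2 and 13 and 28 in jejunum 1 and 2. Both subunits of the exporter were therefore lower in the ileum relative to the jejunum in enterocyte-like cells than in stem/progenitor-like cells. The Slc51b interaction was lost with DESeq2 (adjusted p = 0.10), RLE scaling (0.0575), no filter on low counts (0.0582) and clusters built without integration (0.103). The interaction did not pass for Fabp6 (2.73 ± 1.63, adjusted p = 0.335 by edgeR), which has 3 jejunal UMIs in stem/progenitor-like cells, for Slc10a2 (0.50, 0.606), Fgf15 (0.20, 0.690) or Nr1h4 (−0.06, 0.891).

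Detection of the genes was also compared within single ileal enterocyte-like cells, thinned to 4000 UMIs. In ileum 1 Fgf15 was seen in 49.2% of the 1148 cells with Fabp6 and in 31.5% of the 3895 without it. In ileum 2 the shares were 27.9% of 2180 cells and 23.1% of 3392. Nr1h4 was seen in 68.7% of cells with Fabp6 against 59.2% without in ileum 1, and in 73.0% against 62.5% in ileum 2. The exporter subunits showed the same order, Slc51a at 90.2% against 78.3% and 97.5% against 94.3%, and Slc51b at 25.0% against 18.3% and 32.6% against 27.4%, as did Nr0b2 at 2.96% against 2.34% and 4.54% against 4.13%. Cells with Fabp6 thus more often held a UMI of these 5 genes in both ileal libraries. For Nr0b2, seen in 125 cells of ileum 1 and 239 of ileum 2, the gaps were small. The same comparison was not made over all genes, so the order cannot be called particular to these 5. Slc10a2 showed no such common order, at 3.14% with Fabp6 against 3.80% without in ileum 1 and 5.64% against 4.25% in ileum 2. Cells are not replicates, and these shares carry no test.

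Genes with the most similar pattern were named by Pearson correlation of log2(CPM + 5) over cluster-by-library sums, which share libraries, depth and clusters, so the values are descriptions. Over 76 sums of both regions the nearest to Fabp6 were Emid1 (r = 0.94), Cldn8 (0.91), Scd2 (0.90), Bcl2l15 (0.88) and Cpne8 (0.88). Over the 40 ileal sums alone they were others, Cyp2j6 (0.91), Aadac (0.89), Aldh9a1, Gamt and Gpd1 (0.88 each). The list for both regions reflects the regional contrast as well as the cluster pattern, since jejunal sums are near 0 for Fabp6.

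For Fgf15 the nearest over 76 sums was Aldh1l1 (0.78), followed by Mylk3 (0.76), Nrn1 and Mgat4c (0.74 each) and Calr (0.71), and over the ileal sums Aldh1l1 and ccdc198 (0.82 each), Lratd2 (0.81), Cldn8 and Nrn1 (0.80 each). Among the nearest to Nr0b2 were Arf4 (0.93), Aqp8, Lpgat1 and Rmdn3 (0.90 each) over all sums, and Ebpl and Tm9sf1 (0.74 each), Acss1 (0.73) and Cox5a (0.72) over the ileal ones. Slc51a lay nearest to Xpnpep1, at 0.94 over all sums and 0.97 over ileal sums, with Anks4b (0.92), Slc27a4 and Uap1l1 (0.89 each) and Tmem253 (0.88) next over all sums and Slc26a6 (0.93), Cysrt1 (0.91), Tmem86b (0.90) and Tfg (0.88) next in the ileum. Slc51b lay nearest to Surf4 (0.93), Vdac2 and Slc25a11 (0.91 each), Mogat2 and Slc7a7 (0.90 each), and in the ileum to Akr1c13 and Vdac2 (0.91 each), Aprt (0.90), Tubal3 and Slc37a4 (0.88 each). Mogat2, an enzyme of fat absorption, was thus among the genes closest to the exporter subunit.

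Nr1h4 lay nearest to Tubal3 and Hsd3b3 (0.90 each), Nsun4 and Clic5 (0.88 each) and Flacc1 (0.87), and in the ileum to Tubal3 and Sult1d1 (0.92 each), Flacc1 (0.91), Nsun4 and Papss1 (0.90 each). Slc10a2, with few UMIs, had weaker neighbours. Among them were Stard4 (0.74), Diaph1 (0.72), Fabp6 and Slc5a8 (0.70 each) over all sums, and Arhgap27 (0.59), Rai14 and Lzic (0.58 each), Arcn1 and Traf6 (0.56 each) in the ileum. Among the 7 genes themselves the closest pairs over ileal sums were Slc51a with Slc51b (0.81), Nr1h4 with Slc51b (0.79) and Fgf15 with Nr1h4 (0.75).

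Other genes of bile acid handling came from a list of 57, of which 50 were tested in enterocyte-like sums. EdgeR called 12 (against 7.42% of all genes), 6 higher and 6 lower in the ileum, and the median log2 fold change of the tested genes was −0.22 against −0.01 over all genes. With the mouse as a replicate block it called 21, against 18.2% of all genes. The count fell to 1 without ileum 1, 2 without jejunum 2, 6 without ileum 2 and 0 with no filter on low counts, and it was 12 without jejunum 1. Among transporters 3 of 12 were called, all lower in the ileum. Abcb11, the bile salt export pump of liver, was at 2.23 CPM in ileum 1, 1.48 in ileum 2, 6.61 in jejunum 1 and 14.3 in jejunum 2, and fell by 2.62 ± 0.44 on the log2 scale (adjusted p = 0.0296 by edgeR). Abcc3, a basolateral export pump, fell by 1.82 ± 0.32 (adjusted p = 0.0328), and Slco2b1, an organic anion uptake carrier with 17 to 80 UMIs per library, fell by 2.70 ± 0.55 (adjusted p = 0.046).

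Of 7 tested enzymes of synthesis and conversion 2 were called, in opposite directions, against 7.42% of all genes. Cyp3a25, a cytochrome P450, was at 0.970 and 2.12 CPM in ileum 1 and 2 and at 13.6 and 31.3 in jejunum 1 and 2, and fell by 3.97 ± 0.59 on the log2 scale (adjusted p = 0.0244 by edgeR). Baat, which conjugates bile acids with amino acids, rose in the ileum by 2.31 ± 0.40 (adjusted p = 0.0333), from 11 and 8 UMIs in the jejunum to 110 and 67. Fgfr4, the receptor for FGF15, was at 11.6 and 11.7 CPM in ileum 1 and 2 and 4.41 and 3.06 in jejunum 1 and 2, a rise of 1.53 ± 0.22 (adjusted p = 0.0233), while its coreceptor Klb differed by −0.05 ± 0.20 (adjusted p = 0.883).

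Regulators passed in 3 of 17 cases, against 7.42% of all genes. The vitamin D receptor gene Vdr (1.19 ± 0.24, adjusted p = 0.0457 by edgeR) and Nr5a2 (0.86 ± 0.17, adjusted p = 0.0454), which encodes LRH-1, were higher in the ileum. Gata4, a transcription factor of the proximal small intestine, was lower at 32.0 and 49.2 CPM in ileum 1 and 2 against 108 and 102 in jejunum 1 and 2 (−1.48 ± 0.25, adjusted p = 0.0303). Rxra, the usual partner of FXR, differed by 0.08 ± 0.21 (adjusted p = 0.839). Of 7 genes responsive to FXR in gut 1 was called, Sdc1, a syndecan, at 1.07 ± 0.17 (adjusted p = 0.0268 by edgeR). Against 7.42% of all genes, 1 call is too few to read as a result about these 7.

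In the fatty acid binding protein family 2 of 5 tested genes were called, against 7.42% of all genes. Fabp2, the intestinal form, was at 1226 and 2379.9 CPM in ileum 1 and 2 and 5947 and 5282 in jejunum 1 and 2, and fell by 1.74 ± 0.35 on the log2 scale (adjusted p = 0.0448 by edgeR). Fabp5, seen at 5.38 and 1.92 CPM in the ileum, rose by 3.06 ± 0.55 (adjusted p = 0.0357). Fabp1, the liver form, was at 126 and 1117 CPM in ileum 1 and 2 and 6496 and 6274 in jejunum 1 and 2, yet its −3.44 ± 0.97 did not pass (adjusted p = 0.0898). Fabp6 thus had the opposite regional order to Fabp1 and Fabp2 in both mice.

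**Figure D5:**
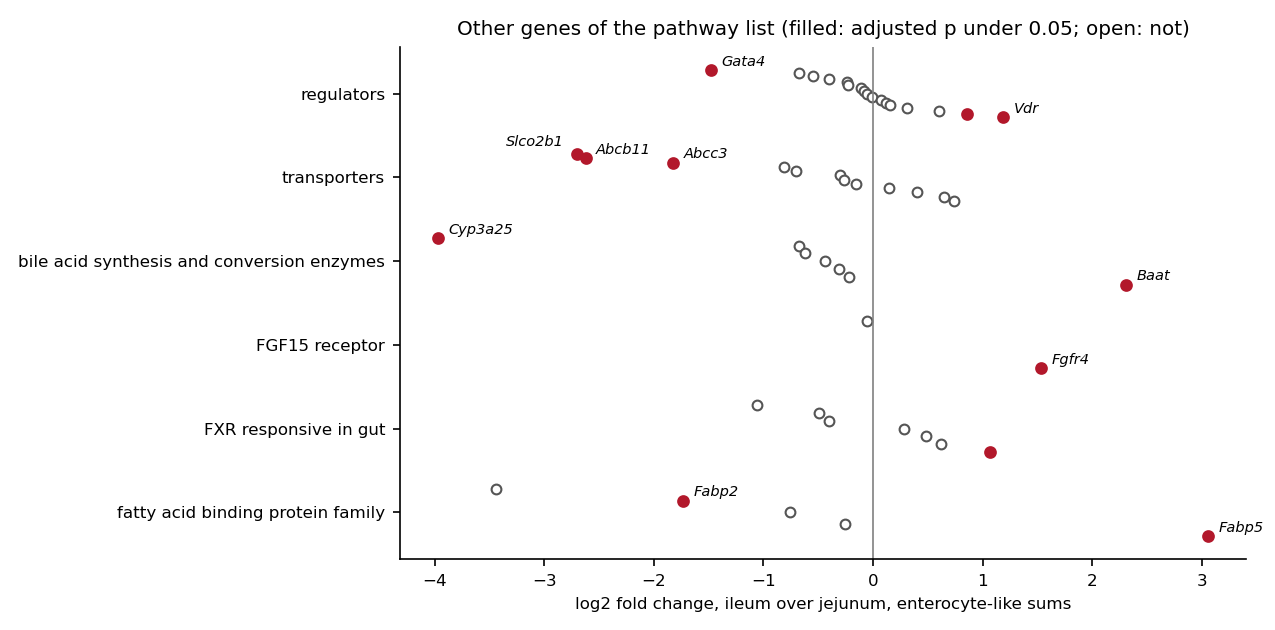
Each point is 1 gene of the list of other bile acid handling genes, placed by its log2 fold change of ileum over jejunum in enterocyte-like sums on the x axis and by its role on the y axis. Filled points passed an adjusted p of 0.05. Filled transporters lie left of 0, and the filled points furthest to either side are Cyp3a25 at −3.97 and Fabp5 at 3.06.

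In stem/progenitor-like sums 40 genes of the list were tested and 4 called (against 2.41% of all genes), 1 higher and 3 lower, with a median of −0.04 against 0.00 over all genes. With the mouse as a replicate block 12 were called, against 8.80% of all genes. Malrd1, a regulator of Fgf15 release, was at 144 and 178 CPM in ileum 1 and 2 and 77.7 and 67.1 in jejunum 1 and 2 (1.10 ± 0.17, adjusted p = 0.00565 by edgeR). Gata4 (−2.10 ± 0.21, adjusted p = 0.000777), Fabp2 (−1.43 ± 0.15, adjusted p = 0.00102) and Fabp1 (−3.62 ± 0.70, adjusted p = 0.0217) were lower in the ileum. The Fabp1 difference was −2.70 without ileum 1 and −6.40 without ileum 2, and was not called by DESeq2 (adjusted p = 0.306). Gata4 and Fabp2 passed in both classes and in the same direction.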

How the data were processed

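Epithelial cells of jejunum and ileum of 2 mice on postnatal day 6 were captured by the authors with PIPseq, a templated emulsification method, and sequenced as 3′ libraries. The authors counted them with PIPseeker, and its version and the annotation are not given in the sources used here. The submitters' processing notes name GRCm39. The deposited matrices hold raw UMI counts per gene and called cell, with no normalization, and 0 sample columns were left unused.

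As in the study's methods, genes were required in 3 or more cells, and cells were required to hold 1000 to 6000 genes with mitochondrial counts below 20%, which 30521 of 36202 did. Seurat 5.3.0 in R 4.3.3 took 2000 variable genes, left out the 7 genes, integrated the libraries by canonical correlation analysis and clustered 30 components at resolution 1 into 23 clusters. A cluster was named for another class with 3 or more of that class's markers, each in 10% of its cells and above the other cells, and called enterocyte-like with 3 enterocyte markers in 50% of its cells, limits chosen with the data in view. Doublets were not called, and leaving out the 6% of cells with the most UMIs per library was tried instead. Goblet-like cells (3 to 9 per library) and an unnamed cluster led in part by Hbb-bs were not compared as classes. Both remained in the sums over all kept cells, and the unnamed cluster also in the cluster-by-library sums used for correlations.

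Per library and class, UMI counts were added up, filtered with filterByExpr, scaled by TMM and tested with edgeR 4.0.16 (quasi-likelihood, region as the only term, Benjamini-Hochberg adjustment, threshold 0.05). Classes were compared over 8 sums, the library being a block. DESeq2 1.42.0 was an alternative, and the fits were tested on simulated data. Both regions of a replicate number come from the same mouse, and the difference between the mice correlated between regions across genes (r = 0.27, 0.235 and 0.244 in enterocyte-like, stem/progenitor-like and all cells). Shares of cells were taken after thinning to 2000 UMIs, and intervals are exact 95% Clopper-Pearson or Poisson limits that cover counting error only. A count of 0 was given the limit of 3 counts.

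The 7 genes and the lists were chosen with earlier results of these data known. Genes named beside the 7 are the 12 called list genes with the largest log2 fold change, and the 5 genes most correlated with each of the 7 over sums of at least 50 cells, among genes with a mean of at least 20 CPM. Some of the latter are not reported here. Klb, Rxra, Nr5a2, Sdc1, Ftl1, Alpi, Leap2 and the leading genes of clusters were named after their values were seen. Python 3.11.15, numpy 2.4.6, scipy 1.17.1 and pandas 2.3.3 were used.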

Additional observations from a re-analysis of the deposited data

Results flagged for a closer look

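The region difference (ileum minus jejunum, log2) was not the same in enterocyte-like and stem/progenitor-like cells for 3 genes, by the interaction of region and class in edgeR's quasi-likelihood test. For Slc51a it was more negative in enterocyte-like cells by −1.27 (adjusted p = 0.000497). On plain CPM with 1 CPM added and no scaling between sums, it was −1.81 in mouse 1 alone and −0.59 in mouse 2 alone, with no test. For Nr0b2 it was more negative by −2.01 (adjusted p = 0.00362), with only 6 to 28 UMIs per library in stem/progenitor-like cells. For Slc51b it was more negative by −0.77 (adjusted p = 0.0489), next to the threshold. No single library could be tested as standing apart, since each group holds 2.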

How the results depend on the processing

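The count of 4 genes called by region in enterocyte-like cells was 0 with no filter on low counts, where edgeR called 1 of 28652 genes and 4 of the 7 had an unadjusted p under 0.05, while DESeq2 called 4. It was 1 to 5 with 1 library left out, 1 without ileum 1 and 2 without ileum 2. In stem/progenitor-like cells the count of 2 became 2 to 3. Over all kept cells the count of 4 became 1 with no filter (5 at an unadjusted p under 0.05) and 2 to 5 with 1 library left out, 2 without ileum 1. The list count of 12 in enterocyte-like cells became 0 with no filter, 19 with DESeq2, 21 with the replicate block and 1 to 12 with 1 library left out (1 without ileum 1, 6 without ileum 2, 2 without jejunum 2). In stem/progenitor-like cells 4 became 7 with no filter, 12 with the replicate block and 4 to 7 with 1 library left out (7 without jejunum 1). The count of 5 genes with shares apart became 5 to 7. The replicate block (pairing by mouse) changed no call of the 7 genes other than Fgf15. Over all genes it moved the calls from 1454 to 3576 in enterocyte-like, 303 to 1107 in stem/progenitor-like and 1526 to 2702 in all cells, and DESeq2 called 3073, 245 and 3175.

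Signs turned for these values, of which the Slc10a2 class difference was called. The Slc51a region difference ran from −0.93 to 0.10 in enterocyte-like and −0.82 to 0.21 in all cells with 1 library left out, and its share difference was 1.81 points without thinning and −19.3 to 4.08 with 1 library left out. The interaction was −0.64 for Slc10a2 with the 7 genes among the clustering genes, 0.092 for Nr1h4 without integration, and with 1 mouse left out −0.20 to 0.22 for Nr1h4 and −0.15 to 0.84 for Fgf15, unscaled CPM differences with no test. The Slc10a2 class difference in the ileum was −0.17 with the 7 genes among the clustering genes. In enterocyte-like cells the Slc10a2 call was also lost at under 10% mitochondrial counts (adjusted p = 0.0642) and with the 7 genes among the clustering genes (0.0512), and the Slc51b call without integration (0.0511). The cause was not tested. Depth limits the jejunal values of Fabp6 and Slc10a2 and all values in immune-like cells.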

Other observations

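The mice differed in several of the genes in ways that ran through the enterocyte-like clusters, described here without a test. Over 14 clusters with at least 50 cells in all 4 libraries, mouse 2 lay above mouse 1 in both regions in 13 for Slc51b and in 12 for Nr0b2, and mouse 1 above mouse 2 in all 14 for Fgf15. For Slc51a the order of the mice turned with the region, with ileum 2 above ileum 1 in 14 clusters and jejunum 1 above jejunum 2 in 14. Mouse, batch and labelled sex cannot be told apart.

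Cluster 13, led by the antimicrobial lectin genes Reg3g and Reg3b and by Afp (alpha-fetoprotein), was nearly confined to the ileum, with 594 and 489 cells in ileum 1 and 2 and 8 and 4 in jejunum 1 and 2. It held 6.85% of the kept ileal cells and 5.04% of the ileal Fabp6 UMIs, a share not corrected for the depth of its cells (median 19087 UMIs). Slc51a was at its lowest of the enterocyte-like clusters there in ileum 2, at 599.6 CPM.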
